A study of Oryza sativa with 36 samples.

Results

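Rathu Heenati (RH) is a rice variety that resists the brown planthopper (BPH), a phloem-feeding insect, and the transcriptome of its shoots was measured 6 h after BPH nymphs were placed on the plants. The comparison was between RH with BPH infestation for 6 h (R6P, 3 arrays) and RH under natural growth at 6 h (R6C, 3 arrays), which are 6 of the 36 arrays of the series. Every one of the 57194 probe sets of the Affymetrix Rice Genome Array was tested. RH shoots punctured with a needle and sampled at 6 h (R6N, 3 arrays), the susceptible variety Taichung Native 1 (TN1) with BPH infestation at 6 h (T6P, 3 arrays) or natural growth at 6 h (T6C, 3 arrays), and RH with BPH infestation at 24 h (R24P, 3 arrays) or natural growth at 24 h (R24C, 3 arrays) were used only to show where the 6 h response of RH differed. Plants were 2-week-old, each replicate was the pooled aerial part of the 10 seedlings of a separate pot, the infested pots received 100 nymphs from a population raised on TN1, and needle plants received 15 pricks. The netted cage that kept nymphs in is described for infested pots, and whether natural growth pots were caged is not given in the sources used here. In shoots pooled in this way, a change in the share of a cell type and a change in the RNA per cell cannot be told apart.

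A planthopper pushes its stylet between cells to the sieve tubes, so a plant meets both a wound and the salivary proteins of the insect. In rice, as in other plants, wounding and herbivory raise jasmonates, and jasmonoyl-isoleucine brings the JAZ repressors to degradation and frees the transcription factors they hold. The JAZ genes are themselves early transcriptional targets of jasmonate, so their mRNA is commonly used as a readout of the pathway. Rice shoots attacked by herbivores also emit volatile terpenes such as linalool, which are built from precursors made in the plastid. Salicylate and ethylene are the other main hormone routes of induced defence.

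All values are linear probe set intensities as deposited, and differences are log2 fold changes on those intensities. A probe set was called differential at an adjusted p under 0.05 with a change of at least 2-fold. Array medians lay between 35.8 and 39.8 over the 36 arrays, the lowest correlation of log2 values between arrays of a group was 0.988, and no pair of arrays held the same values. No detection calls were used, so nothing shows that a signal below about 40 exceeds background, and a fold change against such a signal may be too small. R6P replicate 1 stood closer to natural growth than its fellows, with a mean correlation to the R6C arrays of 0.9948, against 0.9924 for R6P replicate 2 and 0.9920 for R6P replicate 3. OsrbcS, the Rubisco small subunit of the green shoot, had means of 18436 in R6P and 18312 in R6C. None of the 8 photosynthesis genes was differential in limma (3 at an unadjusted p under 0.05, beside 22% of the 17905 genes measured when each is taken by its brightest probe set). Their log2 fold changes lay between -0.16 and 0.43. Without the fold minimum, 2 of the 8 were higher and 0 lower, beside 423 higher and 533 lower of the 17905 genes. All 6 seed storage genes had means between 5.2 and 23.7, and the 3 silicon transporters of the root list, Lsi1, Lsi2 and Lsi6, differed by -0.25, 0.44 and 0.29 without passing the test, although all 3 had an unadjusted p under 0.05, and their part in the results was not tested.

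Infestation of RH for 6 h changed 238 probe sets, of which 181 rose (0.316% of those tested) and 57 fell (0.0997%). The rises were larger than the falls. Among the 181, the median was 2.63-fold, 44 reached 4-fold and 16 reached 8-fold, whereas among the 57 the median was 2.36-fold, 7 reached 4-fold and 0 reached 8-fold. Without the fold minimum, 775 probe sets were higher (1.36%) and 976 lower (1.71%), so the smaller changes were more often falls. The 3 R6P arrays did not overlap with the 3 R6C arrays in any of the 238 probe sets. These probe sets were selected on the same arrays, so this is no further support, and the share over all probe sets was not counted. Among the 181 rises, R6P replicate 1 was the infested array nearest to natural growth in 135. Without that array, 290 probe sets were called, of which 203 rose and 87 fell, and 234 of the 238 remained. Fewer of the 238 remained without the other arrays: 180 without R6P replicate 2 and 195 without R6P replicate 3. Without R6C replicates 1, 2 or 3, 207, 205 and 208 remained. The smallest rise called was 2.01-fold and the smallest fall 2.001-fold, and 24 further probe sets changed by 2-fold or more without passing the test. Of the rises, 132 probe sets were tied to 124 genes, and 33 of these probe sets to 30 genes with a name. Of the falls, 39 were tied to 37 genes, and 5 had a name.

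**Figure D1:**
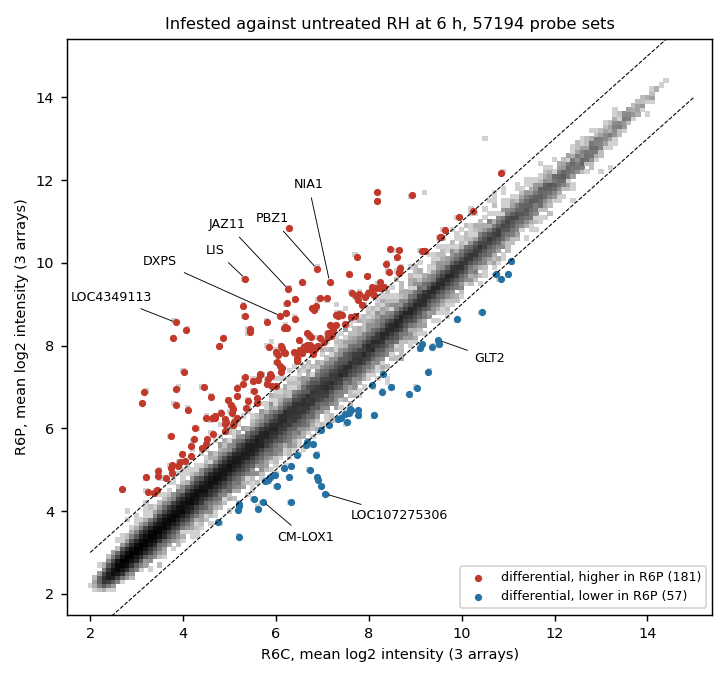
Mean log2 intensity of the 3 R6P arrays (vertical axis) against that of the 3 R6C arrays (horizontal axis) for all 57194 probe sets, with grey bins that darken with the number of probe sets, the 181 rises in red, the 57 falls in blue and dashed lines at 2-fold. The rises reach 26.3-fold (LOC4349113) and the falls 6.22-fold (LOC107275306).

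LIS, linalool synthase, had the largest rise among named genes, at 4.27 log2 units over natural growth. It had intensities of 587, 710 and 1156 in R6P, of 118, 226 and 118 in R6N and of 32.6, 44.5 and 46.3 in R6C. The 3 groups did not overlap, and the difference between infested and needle shoots was 2.42 log2 units (SE 0.26, adjusted p = 7.31e-07). DXPS, a deoxyxylulose phosphate synthase at the entry of the plastid route to terpene precursors, gave 317, 434 and 543 in R6P, 166, 157 and 126 in R6N and 59.8, 79.9 and 67.1 in R6C. Its rise over natural growth was 2.62 (SE 0.19, adjusted p = 2.81e-10) and its rise over needle shoots 1.5 (adjusted p = 2.38e-05). These were the 2 differential genes among the 12 measured of the terpenoid list, whose median log2 fold change was 0.03. Over all 17905 genes, taken in the same way with the brightest probe set of each, the median was -0.03, 0.653% rose and 0.195% fell, and these are the shares beside each list count that follows.

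Several JAZ genes rose, and since the study singled out this family on the same arrays, the count is not independent evidence of its direction. The study measured less jasmonate in RH after infestation, and it proposes that the raised JAZ repressors reflect a repressed jasmonate pathway. Arrays do not measure the hormone, so whether the JAZ rises go with more or with less jasmonate was not tested. Of the 17 measured genes of the TIFY family, 7 were differential, all of them higher in R6P, a rise in 41.2% of the list beside 0.653% of all genes, and the median log2 fold change of the list was 0.29. JAZ11 had 522, 611 and 895 in R6P, 263, 250 and 214 in R6N and 57.9, 89.2 and 88.6 in R6C. Its infested arrays lay above all needle arrays, which in turn lay above all natural growth arrays, and its log2 fold change over R6C was 3.10 (SE 0.29, adjusted p = 3.32e-08). JAZ9 had 120, 117 and 149 in R6P, 55.1, 39.9 and 42.1 in R6N and 16.6, 25.8 and 23.8 in R6C, a change over R6C of 2.56 (SE 0.22, adjusted p = 3.11e-09). JAZ13 followed the same order, with 97.7, 112 and 119 in R6P, 41.8, 29.6 and 38.2 in R6N and 19.1, 29.3 and 25.3 in R6C. For JAZ9 and JAZ13 the natural growth signals were below the array medians.

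The other differential JAZ genes had higher signals in natural growth or smaller changes. JAZ8 had 1022, 1380 and 1430 in R6P, 883, 932 and 865 in R6N and 332, 431 and 450 in R6C (1.66, SE 0.18, adjusted p = 3.36e-07). JAZ10 had 963, 1032 and 1004 in R6P, 666, 595 and 727 in R6N and 291, 369 and 336 in R6C on a probe set that can match more than a single transcript. A second JAZ10 probe set changed by 1.02 and was under 2-fold without R6P replicate 2 (0.98) or without R6C replicate 2 (0.96). JAZ12 rose by 1.45 and JAZ5 by 1.39.

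Against needle shoots, JAZ9, JAZ11 and JAZ13 were differential (1.5, 1.45 and 1.59 on the log2 scale), although JAZ11 did not pass without R6N replicate 3 (adjusted p = 0.0559) or R6P replicate 3 (0.111) in limma. In that comparison JAZ8 (0.50, adjusted p = 0.242), JAZ12 (0.47, adjusted p = 0.443) and JAZ5 (0.64, adjusted p = 0.282) did not pass the test. That comparison called 114 probe sets in either direction (0.199%), and it shares the R6P arrays with the comparison to natural growth. JAZ6 was higher in R6P by 0.56 (adjusted p = 0.000495), which is under 2-fold, and JAZ7 differed by 0.29 (adjusted p = 0.0544). The remaining members did not pass as rises. JAZ2 had means of 7.62 in R6P and 7.80 in R6C, both far below the array medians, JAZ3 and JAZ4 differed by 0.04 and 0.08, and GATA17, a TIFY family zinc finger gene, was lower by 0.46 (adjusted p = 0.0162).

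**Figure D2:**
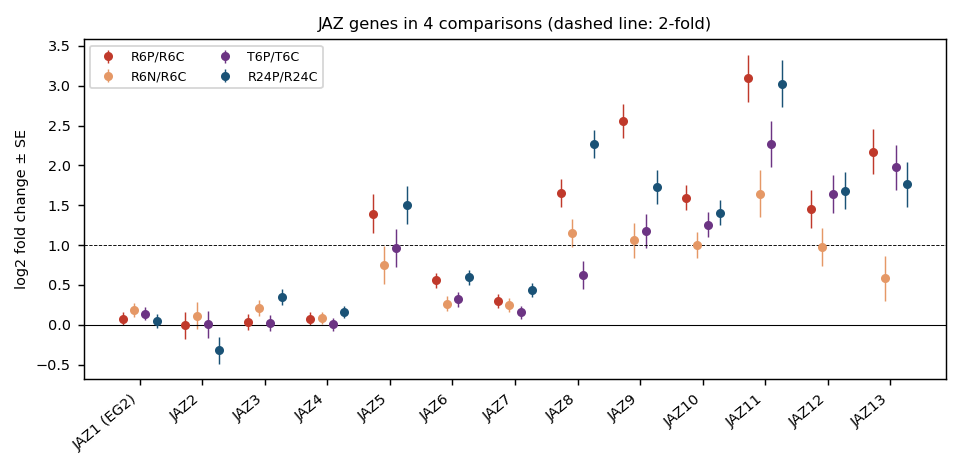
Log2 fold change of 13 JAZ genes in R6P/R6C, R6N/R6C, T6P/T6C and R24P/R24C, with error bars of 1 SE from the fit and a dashed line at 2-fold. JAZ11, JAZ9 and JAZ13 have the largest changes in R6P/R6C, at 3.10, 2.56 and 2.17, and R6N/R6C shares the R6C arrays with R6P/R6C.

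Few named genes of jasmonate synthesis changed by 2-fold or more. Of the 19 measured genes of the synthesis list, 0 rose and 1 fell by at least 2-fold in limma, and the median was 0.10. Without the fold minimum, 3 of the 19 were higher and 2 lower, beside 423 higher and 533 lower of all 17905 genes. At an unadjusted p under 0.05 there were 9, or 47.4%, beside 22% of all genes. AOS (LOC4334233), an allene oxide synthase at the branch to jasmonate, had 367, 360 and 448 in R6P and 178, 237 and 221 in R6C. These arrays did not overlap, and the log2 fold change of 0.89 passed the test (adjusted p = 9.54e-07) while staying under 2-fold. A second gene of that name, LOC4332121, was lower by 0.45. LOX5, a lipoxygenase, and aoc, the allene oxide cyclase, differed by 0.43 and 0.33. CM-LOX1, a lipoxygenase gene, had 24.9, 15.6 and 17.1 in R6P, 45.9, 25.4 and 55.4 in R6N and 38.9, 50.7 and 74.7 in R6C. Its change of -1.49 on the log2 scale (SE 0.37, adjusted p = 0.0216) rested on signals around the array medians and did not pass the test without R6P replicate 2 (adjusted p = 0.117), R6P replicate 3 (0.0951), R6C replicate 2 (0.0693) or R6C replicate 3 (0.147). CM-LOX2, its neighbour in the study's jasmonate table, differed by -0.04 (adjusted p = 0.951).

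The salicylate and ethylene lists, built here from gene names, held no differential gene. The study's own table of hormone genes lists members of both routes as changed in R6P/R6C, among them OsPAL6 and peroxidase genes as raised. It also reports more salicylate in RH at 6 h. In RH that increase came before the decrease in jasmonate that the study measured. The lists here need not hold the same genes. In the salicylate and phenylpropanoid list, 0 of 13 genes were differential in limma (5 at an unadjusted p under 0.05), with a median of 0.11. Without the fold minimum, 0 of the 13 were higher and 1 was lower, beside 423 higher and 533 lower of all 17905 genes. PAL06, a phenylalanine ammonia-lyase, differed by -0.39, OsICS, the isochorismate synthase, by -0.36 and NH1, the rice NPR1 homologue, by -0.11, none of them past the test. Whether PAL06 is the OsPAL6 of the study's table was not checked. 4CL5, a 4-coumarate-CoA ligase that the study lists for salicylate, had 110, 136 and 117 in R6P, 255, 231 and 203 in R6N and 66.7, 102 and 95.0 in R6C. It was highest in needle shoots, so that infested shoots lay between the others, with -0.92 against R6N (adjusted p = 0.0168, under 2-fold) and 0.48 against R6C (adjusted p = 0.195). In the ethylene list, 0 of 11 genes were differential in limma (3 at an unadjusted p under 0.05), although EIL1 (LOC4332697), a transcription factor of ethylene signalling, was lower by 0.83 without reaching 2-fold. ACO1, an enzyme of the last step of ethylene synthesis, had 72.1, 74.7 and 59.3 in R6P and 104, 91.5 and 103 in R6C (-0.54, adjusted p = 0.0685).

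LOC4340892, annotated by the study's terms as a serine-type endopeptidase inhibitor, had 1460, 1847 and 2246 in R6P, 3114, 2334 and 1900 in R6N and 59.8, 116 and 69.1 in R6C. Infested and needle shoots overlapped, and the rise over natural growth of 4.54 (SE 0.57, adjusted p = 6.17e-06) stood beside a rise of 4.94 in needle shoots. Another probe set of this gene differed by -0.06 (adjusted p = 0.67), and the probe sets disagree. The study's table of terms comes from its analysis of probe sets that it had called differential in this series. It gives that term to 15 probe sets, of which 5 were differential here. Of these, which were chosen after their values were seen, LOC4325998 had 2233, 2885 and 3822 in R6P, 3553, 2483 and 2172 in R6N and 224, 348 and 310 in R6C. It rose by 3.33 (SE 0.49, adjusted p = 7.21e-05) and differed from needle shoots by 0.12 (adjusted p = 0.949). A pair of probe sets with that term and no gene in the annotation used rose by 2.20 and 1.82, and LOC4325989 by 1.13. The last of these was under 2-fold without R6P replicate 2 (0.97) or R6C replicate 1 (0.98). The named protease inhibitor list itself held 0 differential genes among 7 in limma (1 at an unadjusted p under 0.05).

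PBZ1, a pathogenesis-related protein known in rice for its induction by probenazole, had 705, 1495 and 755 in R6P, 444, 285 and 167 in R6N and 78.4, 160 and 131 in R6C. The infested arrays lay above all others at 6 h, with a log2 fold change of 2.97 over R6C (SE 0.44, adjusted p = 6.17e-05) and of 1.74 over R6N (adjusted p = 0.0528). PBZ1 was the 1 differential gene among 14 of the chitinase and pathogenesis-related list, whose median was 0.20. LOC9270637, which carries the term chitinase activity and was chosen after its values were seen, had 171, 162 and 218 in R6P, 132, 118 and 87.9 in R6N and 86.1, 60.1 and 59.5 in R6C (1.43, SE 0.28, adjusted p = 0.0027). The Cht11 probe set missed the threshold at 0.99 (adjusted p = 0.0536).

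A pair of genes with the term ribonuclease T2 activity, whose products degrade RNA outside the cytosol, were high in both infested and needle shoots. LOC4347708 had 2582, 2316 and 5298 in R6P, 4511, 2242 and 2134 in R6N and 494, 496 and 469 in R6C (2.70, SE 0.28, adjusted p = 1.67e-07). LOC4347709 had 1050, 1176 and 1702 in R6P, 2318, 1741 and 1413 in R6N and 352, 352 and 353 in R6C (1.86, SE 0.25, adjusted p = 1.66e-05). Neither gene passed the test between infested and needle shoots (0.18 and -0.48, adjusted p = 0.836 and 0.467). A probe set with no gene in the annotation used has the same term and rose by 1.47. All 3 were chosen after their values were seen, out of 4 probe sets with this term. Such terms came from the study's analysis of probe sets that it had called differential on these same arrays. Its table covers 839 probe sets, of which 75 were differential here. That is not a background share, and these counts do not describe a whole family.

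Transport genes rose in several families, each by few of its named members. Among 25 aquaporin genes, which form water channels, 2 were differential in the list count and the list median was -0.03. OsTIP1, a tonoplast aquaporin, had 380, 563 and 524 in R6P, 294, 266 and 258 in R6N and 115, 101 and 114 in R6C. The groups did not overlap, and the log2 fold change over R6C was 2.13 (SE 0.22, adjusted p = 1.09e-07). Needle shoots also rose over R6C for OsTIP1 (1.30, adjusted p = 0.000992), and infested and needle shoots did not pass the test between them (0.83, adjusted p = 0.0699). OsPIP1;3, a plasma membrane aquaporin, had 193, 321 and 248 in R6P, 377, 242 and 159 in R6N and 50.0, 58.7 and 64.4 in R6C. Infested and needle shoots overlapped, with a difference of 0.03 (adjusted p = 0.982) beside the rise of 2.11 over natural growth. A probe set of OsPIP2;1 had 343, 423 and 683 in R6P and 96.5, 113 and 130 in R6C (2.04, SE 0.25, adjusted p = 4.61e-06), but another 2 probe sets of that gene differed by -0.19 (adjusted p = 0.17) and -0.08 (adjusted p = 0.546), and the list count, which takes the brightest probe set of a gene, holds this gene as not differential.

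ABCG36, a plasma membrane exporter of the pleiotropic drug resistance type, had 166, 235 and 319 in R6P, 102, 99.3 and 88.8 in R6N and 65.2, 59.1 and 69.6 in R6C. Infested shoots were above needle shoots in every array (1.26, SE 0.20, adjusted p = 0.000526), while another ABCG36 probe set differed by 0.12 over R6C (adjusted p = 0.685). LOC4327517, tied by its terms to metal ion transport and chosen after its values were seen, had 261, 319 and 406 in R6P, 67.7, 59.5 and 57.4 in R6N and 36.9, 48.1 and 45.6 in R6C. This was a rise of 2.90 over natural growth (SE 0.23, adjusted p = 8.85e-10), and infested shoots were higher than needle shoots by 2.40 (adjusted p = 1.34e-07). OsVIT1.2, of the vacuolar iron transporter family, rose by 1.34. MHX1, a cation/proton exchanger gene, rose by 1.05 and was under 2-fold without R6C replicate 1 (0.98). Both probe sets of HAK17, a potassium transporter gene, were called (1.11 and 1.08), and both were under 2-fold without R6C replicate 1 (0.87 and 0.93), as was the second without R6P replicate 2 (0.93).

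Nitrogen assimilation held a rise and a fall among its 10 genes. NIA1, nitrate reductase, had 660, 678 and 937 in R6P, 958, 536 and 304 in R6N and 131, 125 and 177 in R6C (2.39, SE 0.31, adjusted p = 8.08e-06), and a second NIA1 probe set differed by 0.30 (adjusted p = 0.22). Infested and needle shoots overlapped for NIA1 (0.47, adjusted p = 0.578). GLT2, a glutamate synthase gene, went the other way, with 246, 257 and 351 in R6P, 692, 502 and 551 in R6N and 759, 678 and 735 in R6C. Needle and infested arrays of GLT2 did not overlap, although their difference of -1.04 missed the threshold (adjusted p = 0.0861), and its change against natural growth was -1.37 (SE 0.28, adjusted p = 0.00401).

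**Figure D3:**
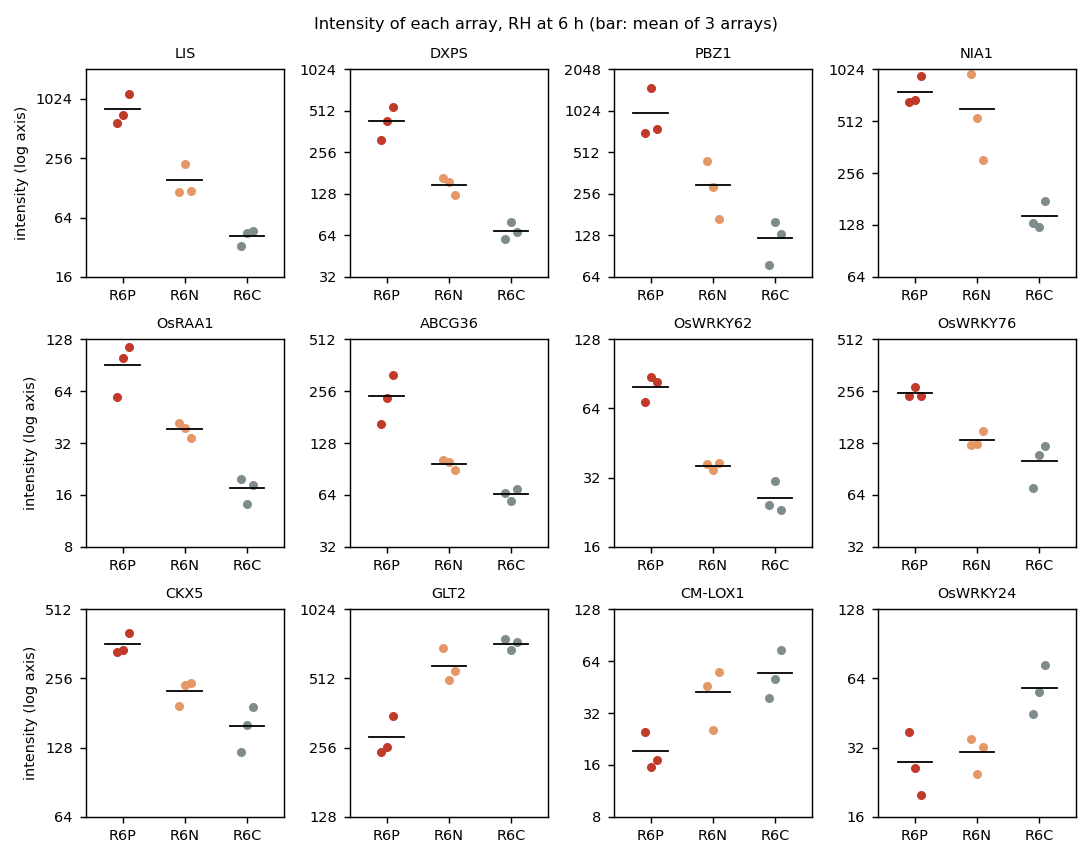
Intensity of 12 named genes in each R6P, R6N and R6C array on a log axis, with 1 point per array and a bar at the mean of the 3 arrays. The ranges of the 3 groups of LIS and DXPS are separate, whereas NIA1 overlaps between R6P and R6N and GLT2 is lowest in R6P.

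Few named transcription factor genes passed the 2-fold limit, and lists drawn from gene names do not cover whole families. In the WRKY list of 6 named genes, 2 rose, 1 fell and the median was 0.38. OsWRKY62, known as a repressor of rice defence genes, had 68.4, 87.4 and 83.1 in R6P, against 24.4, 31.0 and 23.0 in R6C. OsWRKY76, a repressor of the same kind, had 239, 270 and 241 in R6P, against 70.2, 108 and 123 in R6C. Their infested arrays lay above all natural growth arrays (1.61 and 1.35, adjusted p = 8.01e-06 and 0.000117), although the natural growth signal of OsWRKY62 was below the array medians. OsWRKY24, a WRKY factor of hormone signalling, had 37.5, 26.1 and 19.9 in R6P and 44.9, 55.9 and 73.4 in R6C. Its change of -1.08 did not pass without R6P replicate 3 (adjusted p = 0.0648) or R6C replicate 3 (0.0551).

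None of the 8 NAC, 10 MYB, 13 bHLH and 11 ERF genes in the lists was differential in limma, and 3, 4, 6 and 1 of them had an unadjusted p under 0.05. NAC067 (0.97) and BHLH148 (0.86) were higher without reaching 2-fold. OsC3H54, a CCCH zinc finger gene, had 65.5, 48.9 and 75.4 in R6P and 122, 117 and 138 in R6C, and it was the 1 differential gene of 54 in the zinc finger list. Its change of -1.01 was under 2-fold without R6P replicate 2 (-0.84) or R6C replicate 3 (-0.94). FDRMADS7, a MADS-box gene, rose by 1.01 and was under 2-fold without R6P replicate 2 (0.81) or R6C replicate 2 (0.97).

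Hormone genes outside the 3 defence routes changed singly. CKX5, a cytokinin oxidase that breaks cytokinin down, had 335, 340 and 405 in R6P, 194, 239 and 245 in R6N and 122, 161 and 193 in R6C. The groups did not overlap for R6P, and the rise over R6C was 1.20 (SE 0.15, adjusted p = 6.67e-06), the 1 differential gene among 19 of the cytokinin list. LOG, a cytokinin-activating enzyme, was higher by 0.68 and OsRR9, a response regulator induced by cytokinin, lower by 0.99, both under 2-fold. GH3.2, which conjugates auxin to amino acids, had 29.5, 39.8 and 41.8 in R6P and 14.5, 16.3 and 15.3 in R6C (1.25, SE 0.22, adjusted p = 0.000915), with natural growth signals below the array medians. It was the 1 differential gene of 58 in the auxin list. OsRAA1, a gene known for its part in rice root architecture, had 58.9, 99.6 and 115 in R6P, 41.8, 39.1 and 34.2 in R6N and 19.9, 14.2 and 18.3 in R6C, and its infested arrays lay above all others (2.34 over R6C, SE 0.26, adjusted p = 4.27e-07). None of the 8 gibberellin and 22 abscisic acid genes was differential in limma (3 and 2 at an unadjusted p under 0.05).

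Enzymes and stress proteins gave single members as well. CAD6, a cinnamyl alcohol dehydrogenase gene, had 222, 222 and 284 in R6P and 92.4, 95.3 and 133 in R6C (1.19, SE 0.17, adjusted p = 5.32e-05). BGLU16, a beta-glucosidase gene, was called on both of its probe sets (1.12 and 1.10), but neither passed without R6P replicate 2, without R6P replicate 3, without R6C replicate 1 or without R6C replicate 2, with adjusted p between 0.0696 and 0.143 in those fits. ADPase, an apyrase gene, had 4585, 4570 and 4685 in R6P, 3502, 4392 and 3674 in R6N and 1868, 2040 and 1651 in R6C (1.32, SE 0.16, adjusted p = 4.2e-06). HSP16.0, a small heat shock protein, was the 1 differential gene of 43 in the heat shock list, and its rise of 1.24 rested on R6P replicate 2, without which it was 0.88 (adjusted p = 0.0734). The infested arrays of HSP16.0 were 202, 341 and 130, against 97.7, 86.8 and 79.8 in R6C.

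Of the lists with no differential gene in limma, the 78 calcium, 56 PP2C, 55 cell wall, 29 cytochrome P450, 24 sugar and 24 ribosome genes were the longest, with 17, 11, 11, 11, 4 and 5 at an unadjusted p under 0.05. These are 21.8%, 19.6%, 20%, 37.9%, 16.7% and 20.8% of the lists, beside 22% of all genes. Without the fold minimum, 1 calcium gene was higher and 4 were lower, and the ribosome list had a median of -0.10. MAPK6 (LOC4339633), a protein kinase gene, was higher by 0.64 and CIPK1, a kinase that works with calcium sensors, by 0.66. CCA1, a clock gene, was lower by 0.80 and EXPB11, an expansin gene whose family loosens cell walls, by 0.71. These were tested against all probe sets and stayed under 2-fold.

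**Figure D4:**
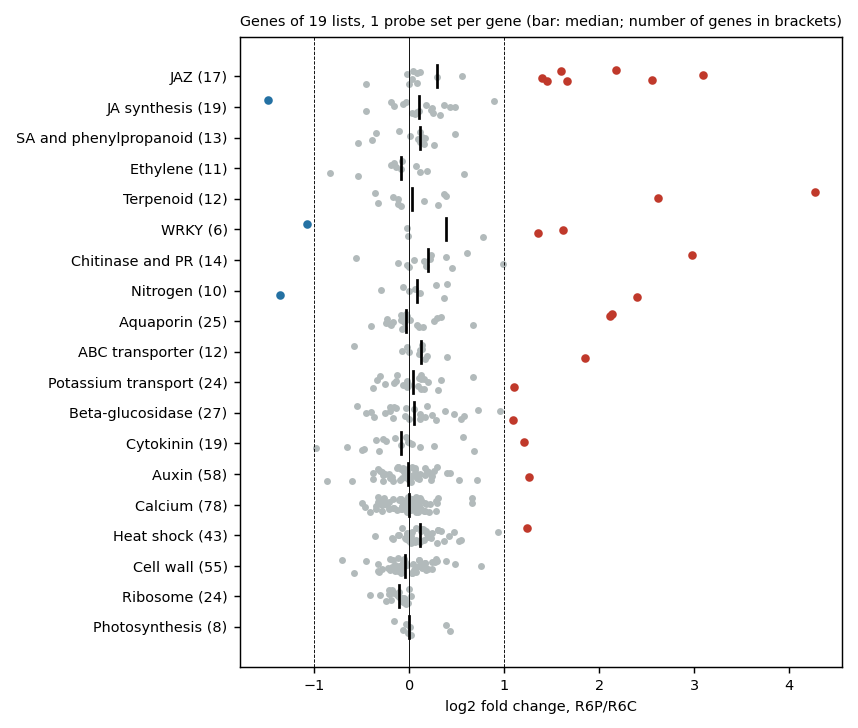
Log2 fold change in R6P/R6C of the genes of 19 lists, 1 point per gene with the number of genes in brackets, differential genes in red (rise) or blue (fall), a bar at the median of each list and dashed lines at 2-fold. The JAZ median lies at 0.29, and LIS of the terpenoid list is the point farthest to the right at 4.27.

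On intensities as deposited, 4 genes without a name had larger rises than LIS, among them LOC4340892 above. With 32 added before log2, LIS (3.49) was above the other 3, LOC4349113 (3.14), LOC4343433 (2.91) and LOC4324081 (2.81), whose natural growth signals were low. LOC4349113, with the term monooxygenase activity, had 216, 410 and 607 in R6P, 23.9, 54.8 and 30.3 in R6N and 13, 10.2 and 22.4 in R6C, 26.3-fold over natural growth (4.72, SE 0.40, adjusted p = 3.72e-09). LOC4324081 had 293, 302 and 273 in R6P, 109, 33.0 and 16.7 in R6N and 14.4, 13 and 14.3 in R6C (4.38, SE 0.43, adjusted p = 5.51e-08). R6N replicate 1 stood well above the other needle arrays for this gene, yet below every infested array. LOC4343433 had 223, 260 and 633 in R6P, 19.9, 33.0 and 25.7 in R6N and 19.5, 15.2 and 16.1 in R6C (4.30, SE 0.44, adjusted p = 1.25e-07). All 3 natural growth signals lay below the array medians. LOC9266317, chosen after its values were seen, had 318, 277 and 282 in R6P, 51.8, 40.3 and 48.4 in R6N and 24.1, 32.3 and 31.9 in R6C, a rise of 3.32 (SE 0.18, adjusted p = 5.77e-13).

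The 5 largest falls also belonged to genes without a name, and their R6P signals were around or below the array medians. LOC107275306, with the term cysteine-type endopeptidase activity, had 30.4, 18.6 and 17.2 in R6P, 64.3, 40.5 and 36.1 in R6N and 95.3, 129 and 192 in R6C (-2.64, SE 0.30, adjusted p = 8.7e-07). LOC4348206, with the term calcium ion binding, had 40.2, 19.4 and 18.5 in R6P and 113, 106 and 164.5 in R6C (-2.37, SE 0.38, adjusted p = 0.000241). LOC4324397, LOC4340843 and LOC4343492 changed by -2.15, -2.10 and -2.06, and another probe set of LOC4343492 differed by 0.14 (adjusted p = 0.599). ERG1, a small protein with a lipid-binding domain known in rice for its induction by fungal elicitor, had 25.4, 21.6 and 13.6 in R6P, 24.0, 24.9 and 25.6 in R6N and 35.1, 44.2 and 64.4 in R6C. Needle and infested shoots overlapped for ERG1, and its change of -1.25 was just under 2-fold without R6P replicate 3 (-0.99). A LOC4323890 probe set, with the term N-methyltransferase activity and chosen after its values were seen, fell at a high signal, with 1049, 734 and 610 in R6P, 1523, 1726 and 2018 in R6N and 2074, 1855 and 1593 in R6C (-1.24, SE 0.19, adjusted p = 0.00011).

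Some of the differential genes lie side by side on the chromosomes. Of the 161 that could be placed in the gene order of the assembly ASM3414082v1, 13 formed 6 groups with no more than 3 places between neighbours. How many such groups as many other measured genes would form was not counted, so the number is a description only. JAZ9, JAZ11 and JAZ10 are adjacent and all rose, as are OsWRKY76 and OsWRKY62. LOC4347708 and LOC4347709, the ribonuclease genes, form another group. LOC4327517 and OsWRKY24 are neighbours that went in opposite directions (2.90 and -1.08).

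The needle comparison, R6N/R6C, called 101 probe sets in either direction (0.177%) and shares the R6C arrays with R6P/R6C. The protease inhibitor LOC4340892, LOC4347708, LOC4347709, OsTIP1, OsPIP1;3 and NIA1 did not pass the test between R6P and R6N. By contrast, LIS, DXPS, JAZ9, JAZ11, JAZ13, ABCG36, LOC4349113, LOC4324081, LOC4327517 and LOC9266317 were differential between them, higher in R6P (JAZ11 with the exceptions given above).

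In TN1, infestation for 6 h raised 177 probe sets (0.309%) and lowered 11 (0.0192%), with no arrays shared with RH. The rises were 97 without T6C replicate 2, and the falls 17 without T6P replicate 1 and 18 without T6P replicate 2, so the shares of the TN1 list depend on single arrays. Of the rises, 62 were common to both varieties, 34.3% of the RH list and 35.0% of the TN1 list. Of the falls, 2 were common, 3.51% of the RH list and 18.2% of the TN1 list, and 0 probe sets went in opposite directions. A direct test of RH against TN1 in their responses to infestation passed for 63 probe sets without a fold minimum (0.11%) and for 45 with a 2-fold minimum. LOC4324081 had the largest such difference among the named, with 13.5, 11.4 and 11.1 in T6P and 11.1, 13 and 12.1 in T6C, with a change in TN1 of -0.01 (adjusted p = 0.995) beside the rise in RH (difference 4.39, SE 0.60, adjusted p = 0.000266). LOC4327517 had 31.4, 99.4 and 52.4 in T6P and 87.2, 90.5 and 65.3 in T6C (difference 3.45, SE 0.32, adjusted p = 5.14e-07). LIS had 373, 184 and 385 in T6P and 118, 119 and 151 in T6C, a rise in TN1 of 1.21 that was smaller than that in RH by 3.06 (SE 0.36, adjusted p = 3.63e-05). The rise of LIS in TN1 itself did not pass without T6P replicate 1 (adjusted p = 0.0602 in limma), T6P replicate 3 (0.0587) or T6C replicate 2 (0.0513). ABCG36 had 86.3, 65.7 and 92.9 in T6P and 56.3, 68.8 and 69.6 in T6C (difference 1.52, SE 0.28, adjusted p = 0.0119), and its difference did not pass without R6P replicate 3 (adjusted p = 0.0802), R6C replicate 2 (0.0502) or T6P replicate 2 (0.0518). ERG1 had 35.6, 25.1 and 24.6 in T6P and 26.1, 25.8 and 24.7 in T6C, which overlapped, and the difference of -1.38 was just past the threshold (adjusted p = 0.0469) and did not hold in 9 of the 12 fits that each left out 1 array (adjusted p from 0.0531 to 0.212), all but those without R6P replicate 1, R6C replicate 1 or T6P replicate 3.

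For the JAZ genes the difference between varieties did not pass in any case. It was 0.83 for JAZ11 (SE 0.41, adjusted p = 0.49), 1.38 for JAZ9 (SE 0.31, adjusted p = 0.0689) and 1.03 for JAZ8 (SE 0.25, adjusted p = 0.123), which does not show that the varieties respond alike. JAZ8 itself was much dimmer in TN1, at 50.6, 65.8 and 77.0 in T6P and 40.6, 43.4 and 39.7 in T6C, where its difference of 0.62 missed the threshold (adjusted p = 0.0542). JAZ13, with 50.9, 51.0 and 49.4 in T6P and 11.0, 10.8 and 17.8 in T6C, rose by 1.98 in TN1, against 2.17 in RH.

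At 24 h in RH, 547 probe sets rose (0.956%) and 145 fell (0.254%), with no arrays shared with 6 h. The falls were 82 without R24P replicate 1 and 302 without R24P replicate 2. Of the 181 rises at 6 h, 124 were called at 24 h, 68.5% of the 6 h list and 22.7% of the 24 h list. Of the 57 falls, 10 were called at 24 h, 17.5% of the 6 h list and 6.9% of the 24 h list, and the median over the 57 was -0.22 at 24 h. Over the 181 rises, the median was 1.44 in R24P/R24C and 0.78 in T6P/T6C. The change between times was tested directly and passed for 4312 probe sets (7.54%) without a fold minimum. PBZ1 had 4192, 3993 and 5257 in R24P and 2782, 3040 and 4989 in R24C, so natural growth was itself high at 24 h and the response was smaller than at 6 h (time difference -2.62 on the log2 scale, SE 0.62, adjusted p = 0.0112). GLT2 was at 10.1, 19.1 and 19.1 in R24P and 14.3, 18.6 and 11.3 in R24C, below the array medians in both, and its change at 24 h was 0.10 (adjusted p = 0.865). LOC4349113 was also higher at 24 h, with 1968, 1337 and 2383 in R24P and 30.5, 39.8 and 47.7 in R24C, and its change between times was not past the threshold (0.86, adjusted p = 0.353). LOC4342003, with the term lipid localization and chosen after its values were seen, had 355, 439 and 543 in R6P and 67.5, 80 and 75.9 in R6C, and 3641, 1811 and 2937 in R24P and 67.5, 76.8 and 41.8 in R24C (time difference 2.92, SE 0.43, adjusted p = 0.000171). LOC4334200, with a term for peroxidase activity and also chosen after its values were seen, fell at 6 h to 78.3, 81.7 and 110 in R6P, against 187, 194 and 196 in R6C. At 24 h it had 191, 189 and 220 in R24P and 95.8, 111 and 104 in R24C, and the difference between times was 2.06 (SE 0.29, adjusted p = 0.000137).

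**Figure D5:**
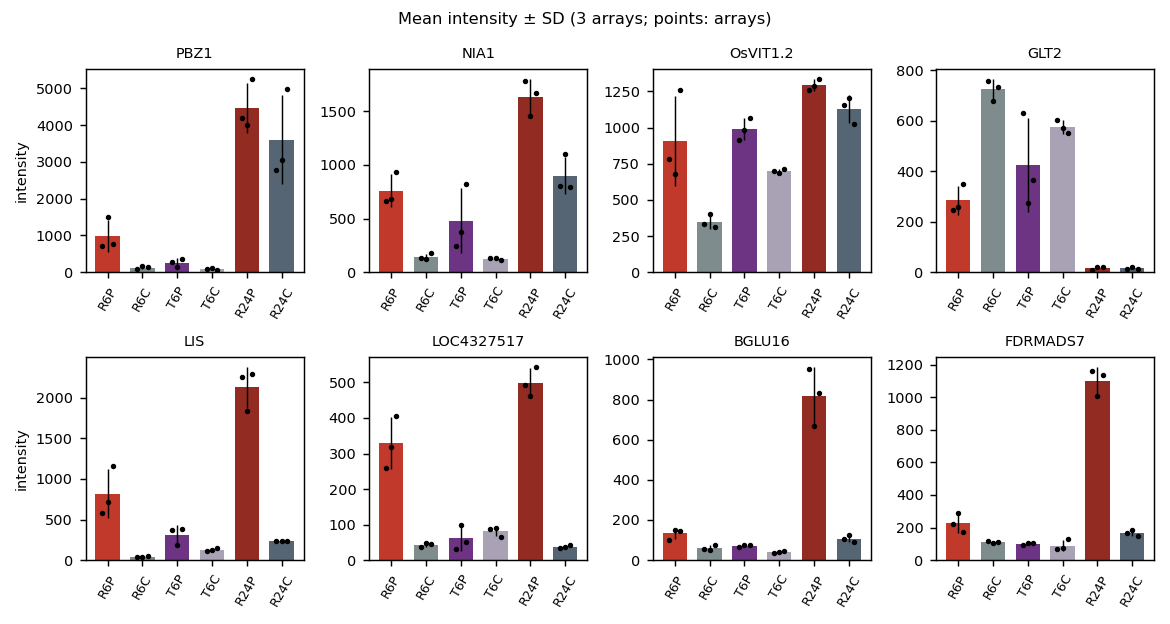
Mean intensity of 8 genes in R6P, R6C, T6P, T6C, R24P and R24C, with error bars of 1 SD over 3 arrays and a point per array. PBZ1 is high in both groups at 24 h, GLT2 is low in both groups at 24 h, and LOC4327517 is high in R6P and R24P but not in T6P.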

How the data were processed

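Per the labels, RNA of whole shoots was hybridised to 36 single-colour arrays. The deposited values are linear intensity values per probe set, which the authors made with RMA in the affy package (versions not given in the sources used here). Their logarithm to base 2 was taken here, with no further normalization and no filter, since the values hold no depth. Precision is set by the 3 arrays per group. One model with a mean per group was fitted to all 36 arrays with limma 3.58.1 in R 4.3.3 (24 residual and 6.16 prior degrees of freedom), with Benjamini-Hochberg adjustment over 57194 probe sets. On simulated data with known changes it recovered 99 of 100 changes of 1.5 and 100 of 100 of 2 on the log2 scale, with 0 false calls, for R6P/R6C over 57194 probe sets. The simulated noise was independent between arrays, with the same spread in all groups and no array effects. It therefore checks the fitting and does not give the error rates of the real arrays. Gene identities came from the array's platform annotation, updated through RefSeq genes: 22436 probe sets had 1 gene, 95 several and 34663 none, and 3192 had a gene with a name. Terms came from the study's table for probe sets that it had called differential in this series. Lists were drawn from gene names and synonyms, which 2457 genes had, so they do not cover whole families. They used 1 probe set per gene, the brightest. Most genes were named by rule: the 15 largest rises and falls with a name, every differential list member, all JAZ genes, genes of the study's hormone tables, and the 5 largest rises and falls of all. OsVIT1.2, MHX1, FDRMADS7, CAD6 and ADPase lay outside this rule and were chosen with their values known. So were the list members given as under 2-fold, other than JAZ and hormone table genes. The members and lists were chosen with earlier results of these data known. Same-numbered R6P and R6C arrays did not deviate together (correlations -0.126, -0.017 and -0.094), so numbers were not taken as pairs. No sequence was analysed here, and the motif search was not run.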

Additional observations from a re-analysis of the deposited data

Results flagged for a closer look

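In these results the response to infestation differed between varieties or between times by a direct test of the difference (limma, adjusted p under 0.05 over all probe sets), which uses the same R6P and R6C arrays as the comparison itself, so they are values to look at and not independent support.

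Between varieties at 6 h, the response of RH exceeded that of TN1 on the log2 scale by 4.39 for LOC4324081, by 3.45 for LOC4327517, by 3.09 for LOC4349113, by 3.06 for LIS, by 2.67 for LOC4338934, by 2.07 for LOC4330542, by 2.04 for LOC4342003, by 1.95 for LOC9266317, by 1.86 for LOC4347708 and by 1.52 for ABCG36. LOC4330542, with the term methyltransferase activity, had 570, 706 and 1004 in R6P and 65.0, 114 and 116 in R6C, and 351, 298 and 383 in T6P and 185, 181 and 188 in T6C. LOC4338934 had 93, 112 and 157 in R6P and 8.13, 8.82 and 10.1 in R6C, the R6C signals far below the array medians. For LOC4324081 all TN1 signals were far below the array medians. The difference was negative for ERG1 (-1.38) and for a probe set with no gene in the annotation used (-2.48). The last had 168, 134 and 63.7 in R6P and 417, 468 and 516 in R6C, and 759, 556 and 624 in T6P and 439, 510 and 478 in T6C. Leaving out 1 array at a time ended the call in limma for 5 of these. LOC4349113 and ABCG36 lost it without R6P replicate 3 (adjusted p = 0.0802 for both), R6C replicate 2 (0.0561 and 0.0502) or T6P replicate 2 (0.0512 and 0.0518). LOC4342003 kept it only without R6P replicate 1, LOC4347708 only without R6P replicate 1, R6P replicate 2 or T6C replicate 2, and ERG1 only without R6P replicate 1, R6C replicate 1 or T6P replicate 3.

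Between times in RH, the response at 24 h minus that at 6 h was negative for rises that were smaller at 24 h. It was -2.62 for PBZ1, -2.11 for LOC4337447, -1.94 for LOC9266317, -1.52 for NIA1, -1.46 for LOC4347709, -1.41 for LOC4349216, -1.30 for the ribonuclease T2 probe set without a gene, -1.27 for LOC4347708, -1.14 for OsVIT1.2, -1.06 for LOC4330542, -1.0 for OsWRKY76 and -0.52 for a JAZ10 probe set. LOC4337447 had 457, 625 and 635 in R6P and 118, 146 and 152 in R6C, and 4875, 4363 and 4175 in R24P and 4462, 4874 and 4720 in R24C, so that both groups were high at 24 h. LOC4349216, with the term metal ion transport, had 80.8, 142 and 95.0 in R6P and 27.6, 33.1 and 33.0 in R6C, and 618, 541 and 703 in R24P and 450, 498 and 544 in R24C.

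Rises that were larger at 24 h gave positive differences, of 2.92 for LOC4342003, 2.39 for LOC4344755, 1.93 for LOC4325989, 1.84 and 1.80 for the BGLU16 probe sets and 1.73 for FDRMADS7. LOC4344755, with the terms magnesium ion binding and metabolic process, had 34.9, 22.7 and 45.9 in R6P and 14.2, 12.6 and 13.3 in R6C, and 393, 284 and 451 in R24P and 25.4, 30 and 29.7 in R24C. Its low 6 h signal did not pass the test without R6P replicate 3 (1.08, adjusted p = 0.070). Falls at 6 h that were absent, smaller or turned at 24 h also gave positive differences, of 2.06 for LOC4334200, 1.62 for LOC4340843, 1.58 for LOC4343492, 1.46 for GLT2, 1.29 for LOC4324397, 1.19 for OsWRKY24, 1.03 for ERG1 and 0.99 for OsC3H54. LOC4334200 was the 1 of these with a change past the adjusted p in the opposite direction at 24 h (0.95, adjusted p = 0.00179).

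Among the differences between times, 12 lost their call in limma in 3 to 10 of the 12 fits that each left out 1 array, with adjusted p from 0.0507 to 0.159. These were the differences of NIA1, LOC4347708, the ribonuclease T2 probe set without a gene, LOC4330542, OsWRKY76, JAZ10, LOC4343492, GLT2, LOC4324397, OsWRKY24, ERG1 and OsC3H54. Every array but R6P replicate 1 and R24P replicate 1 ended at least 1 of these calls when left out, and R6P replicate 3 and R24P replicate 3 ended 10 each.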

How the results depend on the processing

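Counts of calls depended on the low signals and on the fold limit, and the cause was not tested. With 32 added before log2, which shrinks changes of dim probe sets, 139 probe sets were called in R6P/R6C, 61 in R6P/R6N, 55 in R6N/R6C, 89 in T6P/T6C and 403 in R24P/R24C. Without the fold minimum (for the interaction tests, with a 2-fold minimum), the counts were 1751, 401, 204, 1413 and 8614 in that order and 578 between times. The study's methods name a one-way analysis of variance without its groups or adjustment. Here it was run on only the groups of each comparison, so its counts are not the study's. With adjusted p it called 1, 0, 0, 0 and 175, and 2 between varieties and 1165 between times. At an unadjusted p under 0.05 it called 245, 125, 120, 191 and 687, and 6196 and 12221 for the interactions. An adjusted p under 0.01 gave 120 in T6P/T6C, 31 between varieties and 888 between times. Fitting only the groups compared gave 29 between varieties and 2075 between times, and array weights gave 137 and 18253. Quantile normalization, median centring, the filter on mean signal and trended variances left the R6P/R6C count between 179 and 243.

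Leaving out each array in turn (arms left with 2 arrays) gave 185 to 290 calls in R6P/R6C, 85 to 142 in R6P/R6N, 67 to 129 in R6N/R6C (67 without R6N replicate 1), 111 to 209 in T6P/T6C (111 without T6C replicate 2), 612 to 875 in R24P/R24C, 35 to 83 between varieties (35 without R6P replicate 3) and 1608 to 9808 between times. The count between times moved by over 1.5 times without any of R6P replicates 2 (2791) and 3 (2349), R6C replicates 2 (2109) and 3 (1608), R24P replicates 1 (9808), 2 (2448) and 3 (1655), and R24C replicates 2 (2631) and 3 (2261).

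Same-numbered arrays share only a number. With the number as a replicate block, the counts were 238, 113, 101, 192 and 693, and 60 between varieties and 3907 between times, and the block changed no named gene's call in R6P/R6C. Other probe sets of a gene turned or ended a call for LOC4340892 (-0.058), OsPIP2;1 (-0.19 and -0.082), LOC4343492 (0.14), NIA1 (0.30) and ABCG36 (0.12). Of the 82 probe sets named or discussed, 20 lost their call with 32 added. No detection calls were used, so signals under about 40 limit every fold change against them.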
